A study of Mus musculus with 6 samples.

Results

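The 10 genes described here, Cdkn1a, Mdm2, Ccng1, Trp53inp1, Phlda3, Gdf15, Sesn2, Zmat3, Plk2 and Btg2, are established transcriptional targets of p53. They were chosen by name, with earlier results of these data known. All 10 were present among the 15454 genes of the count table, and all 10 were among the 12411 genes abundant enough to be tested. RNA was sequenced from 6 livers of male C57BL/6 mice aged 8 to 10 weeks, all of which had undergone warm ischemia of 75% of the liver followed by reperfusion. The I/R group (n = 3) had received vehicle and the I/R+Rk2 group (n = 3) had received ginsenoside Rk2, a saponin of processed ginseng, on the same schedule of 2 days before surgery and again when perfusion began. No sham-operated liver was analysed here, so every value compares injured livers with and without Rk2. The labels give no dose, no duration of ischemia or reperfusion and no lobe, and they do not say whether the livers of a group were handled in separate experiments, so the p-values measure only the spread between these samples.

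The transcription factor p53 is stabilised by DNA damage, oxidative stress and hypoxia, and it then switches on genes that stop the cell cycle, adjust metabolism, repair damage or kill the cell. One of its targets, Mdm2, encodes the ubiquitin ligase that degrades p53, which closes a negative feedback loop. In the liver, Cdkn1a, encoding the cyclin-dependent kinase inhibitor p21, is the textbook p53 target and restrains hepatocyte proliferation after injury, although p21 and several of the other genes are also induced by p53-independent stress signals.

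The p53 protein binds DNA as a tetramer that contacts a pair of decameric half-sites separated by a short spacer. Promoter windows from RefSeq on GRCm38.p6, spanning 250 bases before to 50 bases after an annotated transcription start, were available for 8 of the 10 genes, all except Trp53inp1 and Zmat3. The p53 half-site consensus, which has 10 letters and is the same on both strands, was matched exactly in windows of 3 of these 8 genes, compared with 8.36% of all 32851 windows and 9.55% of the 27025 genes with a window. The 3 stretches that contain a match, from 250 to 31 bases before the start, are shown because they hold the matches to the p53 half-site, with the half-sites in capitals.
Cdkn1a, chr17:29090729-29090948, plus strand: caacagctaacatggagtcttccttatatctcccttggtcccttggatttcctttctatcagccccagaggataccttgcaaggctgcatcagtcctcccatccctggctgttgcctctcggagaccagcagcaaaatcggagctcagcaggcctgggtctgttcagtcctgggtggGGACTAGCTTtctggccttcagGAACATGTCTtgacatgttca
Mdm2, chr10:117710789-117711008, minus strand: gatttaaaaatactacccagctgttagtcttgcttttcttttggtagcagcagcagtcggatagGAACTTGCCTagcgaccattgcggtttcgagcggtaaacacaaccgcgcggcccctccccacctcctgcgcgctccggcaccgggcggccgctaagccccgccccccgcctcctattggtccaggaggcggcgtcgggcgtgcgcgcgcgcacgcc
Ccng1, chr11:40755317-40755536, minus strand: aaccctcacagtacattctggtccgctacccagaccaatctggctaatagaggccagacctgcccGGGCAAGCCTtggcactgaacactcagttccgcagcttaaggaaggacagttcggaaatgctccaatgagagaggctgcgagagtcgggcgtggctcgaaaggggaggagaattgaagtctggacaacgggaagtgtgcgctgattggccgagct
In the printed window Cdkn1a carried 2 half-sites, GGACTAGCTT from 73 to 64 and GAACATGTCT from 51 to 42 bases before that start. Between them lay 12 bases. The window of another annotated Cdkn1a start, chr17:29093519-29093818, held 0 exact matches. Inexact half-sites were not searched, so these 2 exact matches need not be the pair that p53 contacts. Only 24 windows, or 0.0731% of all windows, contained 2 half-sites at most 13 bases apart. Mdm2 carried a single match, GAACTTGCCT, from 186 to 177 bases before the start, and Ccng1 carried GGGCAAGCCT from 185 to 176 bases before the start. The Mdm2 window lies at the annotated gene start. No window was available at the p53-responsive promoter known inside the first intron of Mdm2. The windows of Phlda3, Gdf15, Sesn2, Plk2 and Btg2 held no exact match.

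In the livers of Rk2-treated mice, 5 of the 10 genes were lower and none was higher. Btg2, Sesn2 and Zmat3 were reduced by more than 2-fold, Mdm2 by 46.1% and Plk2 by 27.0%, whereas the mean of Cdkn1a was 76.7 ± 5.61 CPM in I/R livers and 72.2 ± 3.13 CPM with Rk2 (SD, n = 3 each; CPM, read counts scaled to a common library size of 1000000). Differences were tested with the edgeR quasi-likelihood test on raw counts, and a gene was called at a Benjamini-Hochberg adjusted p below 0.05 over all 12411 genes. The comparison was broad, since 43.9% of all tested genes were called, 23.7% lower and 20.3% higher in I/R+Rk2 livers. With the added requirement of a change of more than 2-fold, 11.4% of all genes were lower, against 3 of the 10, and 3.17% were higher, against none of the 10. At an unadjusted edgeR p below 0.05, 6 of the 10 were lower and none was higher. That threshold was passed by 52.8% of all genes, counting both directions. DESeq2 also called 5 of the 10, all lower, and of 15430 genes it called 2864 lower and 2541 higher. The 3 livers of one group lay entirely above the 3 of the other, with I/R higher, for 6 of the 10 genes and for 30.3% of all genes, and with I/R+Rk2 higher for none of the 10 and 27.1% of all genes, a separation in either direction being found for 57.4% of all genes. The median log2 fold change of the 10 genes was -0.67, compared with -0.01 over all tested genes. Because the 10 were chosen with earlier results known, these comparisons describe them and are not an independent test. Expression values per liver are CPM after TMM scaling, in the order of replicates 1, 2 and 3.

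**Figure D1:**
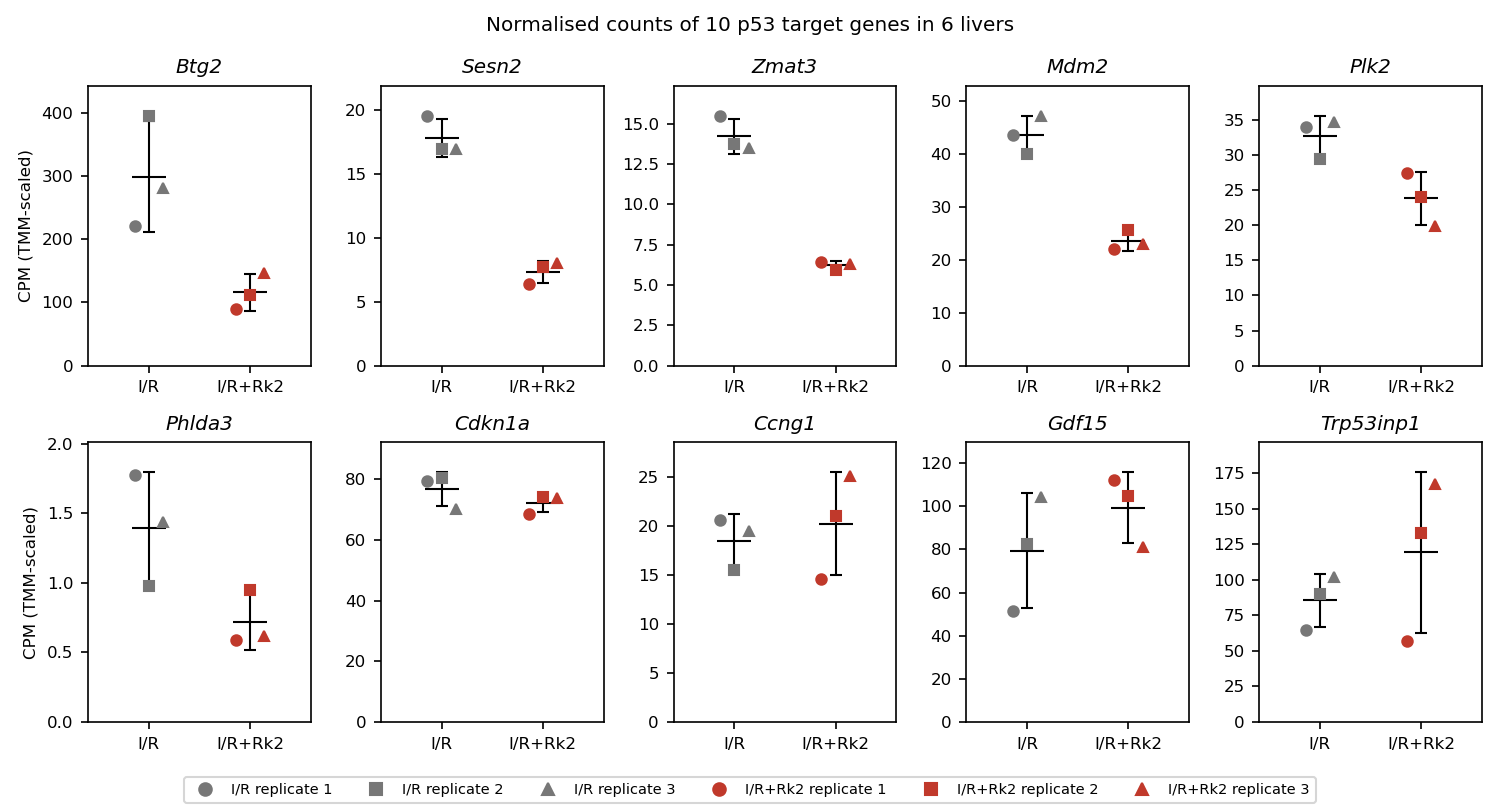
Expression of the 10 genes in each liver, in CPM after TMM scaling; each symbol is 1 liver, grey for I/R and red for I/R+Rk2, and the lines give the group mean and SD (n = 3). Every axis starts at 0, and the groups are fully separated for Btg2, Sesn2, Zmat3, Mdm2, Plk2 and Phlda3 while they overlap for Cdkn1a, Ccng1, Gdf15 and Trp53inp1.

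Among the genes that restrain proliferation, Cdkn1a, with the exact half-site matches printed above, was examined first. Its expression was 79.4, 80.5 and 70.3 CPM in the I/R livers and 68.6, 74.3 and 73.7 CPM in the I/R+Rk2 livers. The groups overlapped, since the lowest I/R liver lay below 2 of the 3 treated livers. The fitted log2 fold change was -0.09 (SE 0.09), with an edgeR adjusted p of 0.448. Cdkn1a was not called under any of the 17 alternative analyses, in which its log2 fold change ranged from -0.25 to -0.04. Of its exonic bases, 7.68% are shared with AC167363.2, an annotated transcript on the opposite strand, and the strand setting of the authors' counting is not given in the sources used here.

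Btg2, an antiproliferative protein that recruits the deadenylase complex to mRNAs, had the highest FPKM of the 10 genes in I/R livers and fell the furthest on the log2 scale. It measured 221.5, 395.2 and 280.7 CPM in the I/R livers and 89.6, 112.1 and 147.3 CPM in the I/R+Rk2 livers. All I/R livers were above all treated livers, and I/R replicate 2 was the highest. The mean decreased from 299 ± 88.3 CPM in I/R to 116 ± 29.0 CPM with Rk2 (SD, n = 3 each), a log2 fold change of -1.36 (SE 0.25, edgeR adjusted p = 0.00533). The call held under all 17 alternatives, with the log2 fold change between -1.56 and -1.11.

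Plk2, a serine/threonine kinase that acts in the stress checkpoint and in centriole duplication, showed the smallest of the changes that passed the test. Its levels were 34.0, 29.3 and 34.6 CPM in the I/R livers and 27.4, 24.0 and 19.9 CPM in I/R+Rk2 livers. The groups did not overlap, but the gap between the closest livers was narrow. This was a log2 fold change of -0.45 (SE 0.14, edgeR adjusted p = 0.032). The call was lost when I/R replicate 1 (adjusted p = 0.0898), I/R replicate 3 (0.102), I/R+Rk2 replicate 2 (0.0850) or I/R+Rk2 replicate 3 (0.0751) was left out of the edgeR fit.

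Ccng1 encodes cyclin G1, which recruits a phosphatase to Mdm2. It measured 20.6, 15.5 and 19.5 CPM in I/R livers and 14.6, 21.02 and 25.1 CPM in I/R+Rk2 livers. The treated livers included both the lowest and the highest value of the 6. Its fitted change on the log2 scale was 0.13 (SE 0.21, edgeR adjusted p = 0.648), and its sign was not stable between analyses.

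Mdm2, the p53 ubiquitin ligase, was lower in every treated liver. It measured 43.6, 40.1 and 47.2 CPM in the I/R group and 22.0, 25.6 and 22.9 CPM in the I/R+Rk2 group. The spread within each group was small beside the distance between the groups. The mean fell from 43.6 ± 3.56 CPM to 23.5 ± 1.89 CPM with Rk2, a log2 fold change of -0.89 (SE 0.10, edgeR adjusted p = 0.00105), and the call held under all 17 alternatives.

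Sesn2 encodes sestrin 2, a leucine-sensing inhibitor of mTORC1 that also limits oxidative stress. It measured 19.5, 16.9 and 16.9 CPM in I/R livers and 6.35, 7.67 and 7.98 CPM in I/R+Rk2 livers. The lowest I/R liver was far above the highest treated one. The mean fell by 58.8%, a log2 fold change of -1.28 (SE 0.13, edgeR adjusted p = 0.000753). Zmat3, an RNA-binding zinc finger protein that regulates splicing and mRNA stability, was lower by a similar margin. It measured 15.5, 13.7 and 13.5 CPM in the I/R livers and 6.43, 5.95 and 6.32 CPM in I/R+Rk2 livers. The 3 treated livers lay close together. The log2 fold change was -1.19 (SE 0.12, edgeR adjusted p = 0.000601), and both Sesn2 and Zmat3 were called under all 17 alternatives.

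The 2 members linked to cell death differed in abundance and neither passed the test. Phlda3, a pleckstrin homology protein that competes with Akt for membrane lipid, had only 10 to 36 reads per library. It measured 1.77, 0.976 and 1.44 CPM in I/R livers and 0.588, 0.947 and 0.614 CPM in I/R+Rk2 livers. The groups did not overlap, but the nearest livers differed by less than 3 reads are worth, which is 0.0888 to 0.184 CPM in these libraries. For Phlda3 the fitted log2 fold change was -0.92 (SE 0.35, edgeR adjusted p = 0.0681). It passed the threshold only after the relation between gene length and fold change had been removed (log2 fold change -1.10, adjusted p = 0.0401).

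Trp53inp1, a nuclear body and autophagy protein, was the most variable member in treated livers. It measured 64.9, 89.8 and 101.8 CPM in the I/R group and 57.2, 132.7 and 167.7 CPM in the I/R+Rk2 group. Replicate 1 of the treated group was the lowest of the 6 livers, and the other two treated livers were the highest. The fitted value was a log2 fold change of 0.48 (SE 0.37, edgeR adjusted p = 0.324). Without I/R+Rk2 replicate 1, it was 0.80 with an adjusted p of 0.0227.

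Gdf15, a secreted TGF-beta family hormone released by stressed hepatocytes, also overlapped between the groups. It measured 51.3, 82.7 and 104.3 CPM in I/R livers and 112.3, 104.9 and 80.9 CPM in I/R+Rk2 livers. The values covered about the same range in both groups apart from the low I/R replicate 1. Its log2 fold change was 0.32 (SE 0.25, edgeR adjusted p = 0.331), and no alternative called it.

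**Figure D2:**
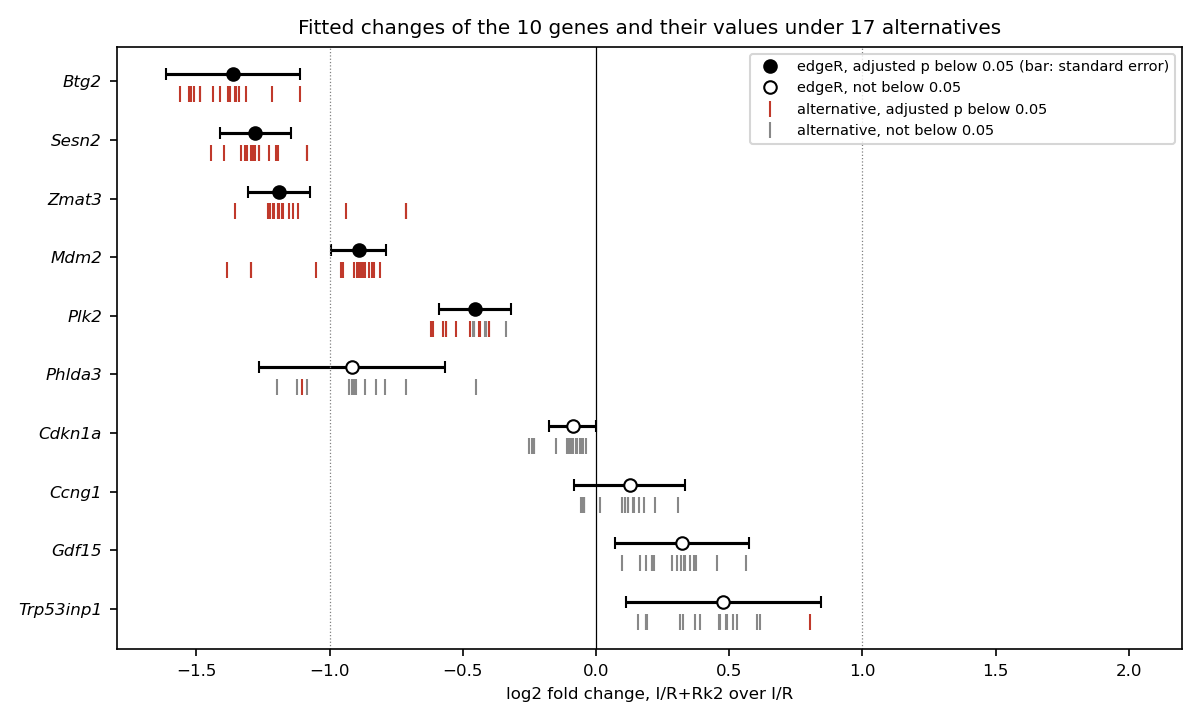
Fitted log2 fold change of each gene, I/R+Rk2 over I/R, with its standard error (circles, filled where the edgeR adjusted p is below 0.05), and the value under each alternative analysis (ticks, red where called). The ticks of Btg2, Sesn2, Zmat3 and Mdm2 are all red and left of 0, those of Plk2 are mixed, and those of Ccng1 lie on both sides of 0; dotted lines mark a 2-fold change.

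Whether the genes changed by unequal amounts was measured within each liver as the log2 ratio of a gene to Cdkn1a, which does not depend on the scaling between libraries. The log2 ratio of Btg2 to Cdkn1a was 1.48, 2.29 and 1.998 in the I/R livers, against 0.39, 0.59 and 0.999 in the treated livers. The difference between group means was -1.26 for Btg2, -1.20 for Sesn2, -1.10 for Zmat3 and -0.81 for Mdm2. For these 4 genes all treated livers had a lower ratio than all I/R livers, which gave a two-sided exact permutation p of 0.1, the smallest that 3 against 3 livers allow, and 0.225 after adjustment over the 9 ratios. The remaining differences were -0.87 for Phlda3, -0.38 for Plk2, 0.19 for Ccng1, 0.45 for Trp53inp1 and 0.46 for Gdf15, with exact permutation p between 0.2 and 0.4.

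Levels can be compared between genes only per unit of length, and for this the authors' FPKM values (fragments scaled by transcript length and library size) were used. In I/R livers the order of mean FPKM was Btg2 (107 ± 27.3), Gdf15 (53.2 ± 16.04), Cdkn1a (41.3 ± 5.53), Mdm2 (22.3 ± 0.595), Trp53inp1 (16.3 ± 1.94), Plk2 (11.6 ± 1.47), Ccng1 (5.25 ± 1.02), Sesn2 (5.10 ± 0.769), Zmat3 (1.82 ± 0.262) and Phlda3 (0.968 ± 0.328). Neighbours in that order overlapped across livers only for Gdf15 with Cdkn1a and for Ccng1 with Sesn2. In I/R+Rk2 livers, Gdf15 (60.7 ± 12.5) came before Btg2 (37.5 ± 8.23) and Cdkn1a (34.8 ± 1.83), and Trp53inp1 (20.3 ± 9.51) before Mdm2 (8.53 ± 1.21). The lowest Gdf15 value of the treated livers, 47.0, was barely above the highest Btg2 value, 46.3. Plk2 overlapped there with both Mdm2 and Ccng1, whereas Sesn2 (1.86 ± 0.173) no longer overlapped with Ccng1 (5.09 ± 1.18). The genes called lower came from the whole range of FPKM and were not restricted to scarce or abundant transcripts.

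**Figure D3:**
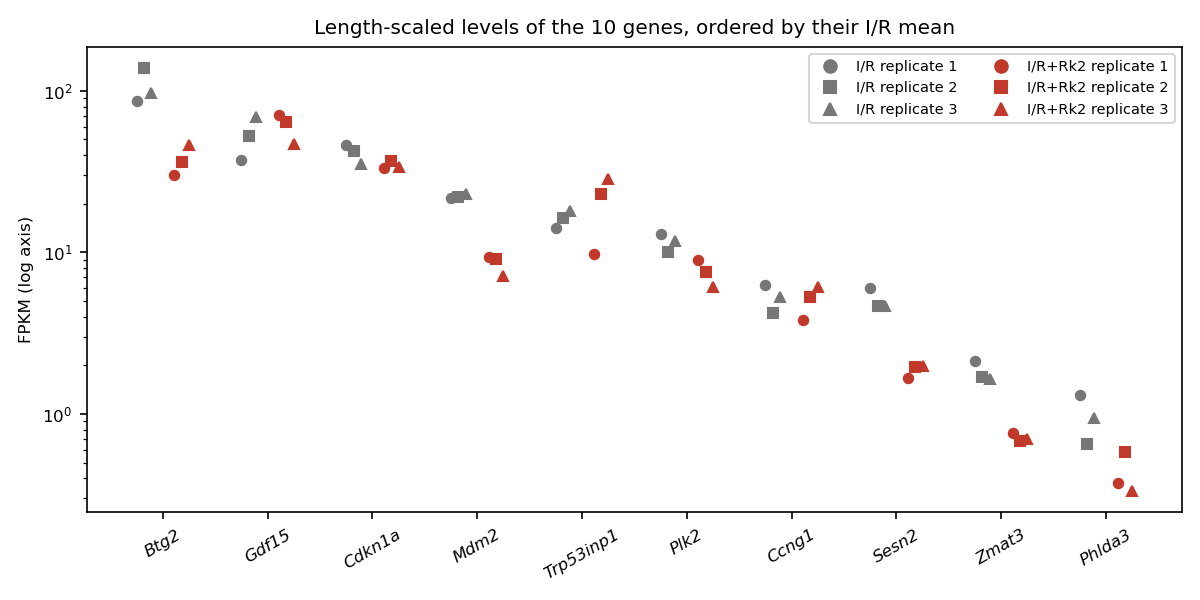
Level of each gene per unit of transcript length in each liver, as deposited FPKM on a log axis, with genes ordered by their mean in I/R. Btg2 and Gdf15 exchange the first place between the grey I/R and red I/R+Rk2 livers, and Mdm2 drops below Trp53inp1.

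Counts and FPKM disagreed in size for Mdm2. The log2 change of its mean FPKM was -1.39, compared with -0.89 for counts. Because FPKM divides counts by an effective transcript length, the count divided by the FPKM of a gene gives the length that was used, and this was scaled in each library on 631 to 792 genes with a single annotated transcript. For Mdm2 the implied length was 2133, 1746 and 1955 bases in the I/R livers and 2147, 2505 and 2761 bases in the I/R+Rk2 livers. All treated livers were above all I/R livers by a small margin between the closest pair, and the highest value was 1.58 times the lowest. GENCODE lists 9 Mdm2 transcripts of 474 to 3145 bases, and Mdm2 is known to have a constitutive promoter and a p53-responsive one inside its first intron. The implied length of the other 9 genes varied by at most 1.11-fold over the 6 livers. It stayed between 2741 and 2742 bases for Btg2, between 3474 and 3492 for Sesn2 and between 1786 and 1891 for Cdkn1a. The length is a property of the transcript mixture assigned by the authors' software, and which Mdm2 transcripts were present was not measured here.

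**Figure D4:**
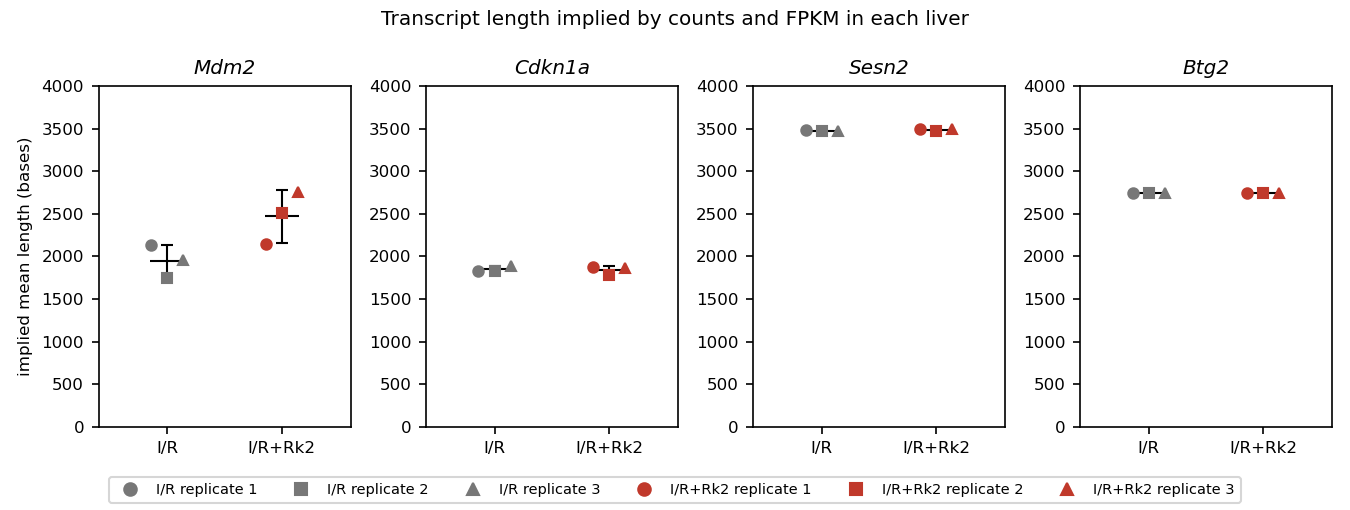
Mean transcript length in bases implied by the deposited count and FPKM of Mdm2, Cdkn1a, Sesn2 and Btg2 in each liver, with group mean and SD (n = 3) and all axes from 0. Mdm2 lies between 1746 and 2761 bases and is higher in all I/R+Rk2 livers, whereas the other genes keep nearly the same length in all 6 livers.

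The p53 gene itself and its regulators were then examined. Trp53, encoding p53, measured 30.8, 25.1 and 29.1 CPM in the I/R livers and 18.3, 16.4 and 16.3 CPM in I/R+Rk2 livers. Every treated liver was lower, and the log2 fold change was -0.74 (SE 0.11, edgeR adjusted p = 0.00275), called under all 17 alternatives; GENCODE also lists a processed pseudogene of Trp53, from which its reads might not be fully separated. Of 22 other genes tested that regulate p53, 5 were lower (22.7%), 2 were higher (9.09%) and 15 did not pass, with a median log2 fold change of -0.21. Among all tested genes, 23.7% were lower and 20.3% were higher. The 2 called higher were the checkpoint kinase Chek2, at 0.352 CPM in I/R and 1.69 CPM with Rk2 (log2 fold change 2.21, edgeR adjusted p = 0.0345), and Mdm4, whose direction differed between measures as described below. Without Mdm4 the share called higher was 4.76% of 21 genes, and Chek2 itself lost the call without I/R replicate 1, I/R replicate 3, I/R+Rk2 replicate 2 or I/R+Rk2 replicate 3. The acetyltransferase Ep300 (log2 fold change -0.88, adjusted p = 0.0025) and the deubiquitinase Usp7 (-0.54, 0.00488), which stabilises both p53 and Mdm2, were lower under all alternatives. Hipk2, a kinase that phosphorylates p53 (log2 fold change -0.37, adjusted p = 0.024), and Ppp1r13l, an inhibitor of p53 (-1.07, 0.0232), were lower but were called under only 8 and 10 of the 17 alternatives. The ubiquitin ligase Huwe1 was lower on counts (-0.61, edgeR adjusted p = 0.00241) but was not called in the 3 FPKM analyses or after removal of the length trend. The damage kinase Atm (log2 fold change 0.34, adjusted p = 0.666) and the phosphatase Ppm1d (-0.42, 0.199) did not pass.

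Mdm4, the partner of Mdm2 in restraining p53, changed in opposite directions in the deposited measures. Its counts corresponded to 7.04, 10.3 and 12.2 CPM in the I/R livers and 14.2, 18.7 and 20.2 CPM in I/R+Rk2 livers, higher in every treated liver. The log2 fold change on counts was 0.84 (SE 0.23, edgeR adjusted p = 0.0217). On log2(FPKM + 1) it was -0.47, with a limma adjusted p of 0.0429. The implied length of Mdm4 was 1707, 2573 and 2671 bases in I/R livers and 6187, 5143 and 5658 bases in I/R+Rk2 livers, so that no treated liver came near the I/R range. A direction for total Mdm4 transcripts was therefore not assigned, and a processed pseudogene of Mdm4 is annotated as well. The count-based call was also lost without I/R replicate 2 (adjusted p = 0.0516), I/R+Rk2 replicate 2 (0.0662) or I/R+Rk2 replicate 3 (0.0619).

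Other p53 targets, listed without the 10 members, were as often higher as lower. Of 39 tested, 8 were lower (20.5%), 8 were higher (20.5%) and 23 did not pass, with a median log2 fold change of 0.10. Those shares are close to the 23.7% and 20.3% of all genes. The largest decrease was that of Dram1, a lysosomal membrane protein of the autophagy pathway, from 3.20 CPM in I/R to 0.344 CPM on 7 to 9 reads per treated library (log2 fold change -3.25, SE 0.27, edgeR adjusted p = 0.000392). Plk3, a stress-responsive polo-like kinase, fell from 164 ± 18.8 CPM in I/R to 75.7 ± 9.20 CPM with Rk2 (3.32% of its exonic bases are shared with Tctex1d4 on the opposite strand), and Apaf1, the core of the apoptosome, fell from 7.94 ± 1.18 to 3.27 ± 0.532 CPM. Perp, a desmosomal protein with a role in apoptosis, rose from 72.1 ± 3.73 CPM in I/R to 105 ± 5.87 CPM with Rk2 (log2 fold change 0.55, adjusted p = 0.00277). Bbc3 and Bax, which encode the apoptosis proteins Puma and Bax, were not selected by the naming rule and were chosen after their values were seen. Bbc3 measured 4.07, 4.76 and 5.54 CPM in the I/R livers and 7.69, 10.7 and 10.4 CPM in I/R+Rk2 livers (log2 fold change 0.998, edgeR adjusted p = 0.00542). The call of Bbc3 was absent from the 3 FPKM analyses. Bax measured 13.04 ± 1.07 CPM in the I/R livers and 13.03 ± 1.42 CPM in I/R+Rk2 livers (log2 fold change -0.00, SE 0.13, edgeR adjusted p = 0.981).

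Relatives of the 10 genes, most of which are not p53 targets, moved in both directions. Of 24 tested without Mdm4, to which no direction was assigned, 7 were lower (29.2%), 6 were higher (25%) and 11 did not pass. Over all tested genes these shares were 23.7% and 20.3%. In the sestrin family, Sesn1 measured 5.68, 6.71 and 6.54 CPM in the I/R livers and 10.2, 11.3 and 11.1 CPM in I/R+Rk2 livers, a log2 fold change of 0.78 (SE 0.12, edgeR adjusted p = 0.003). Sesn1 was thus higher in every treated liver, where Sesn2 was lower. Sesn1 and Plk3 are p53 targets too, and are counted both here and among the other p53 targets above. Sesn3 ranged from 6.51 to 28.5 CPM in treated livers and did not pass (log2 fold change 0.43, adjusted p = 0.487). In the BTG/Tob family of antiproliferative proteins, Btg3 fell from 25.9 ± 4.53 CPM in I/R to 6.13 ± 1.81 CPM with Rk2 (log2 fold change -2.07, adjusted p = 0.000927), although 17.3% of its exonic bases overlap Cxadr on the opposite strand. Tob1 rose from 76.4 ± 7.04 CPM in I/R to 142 ± 42.4 CPM with Rk2 (log2 fold change 0.90, edgeR adjusted p = 0.0152), a call lost without I/R replicate 3, whereas Btg1 (-0.33, 0.108) and Tob2 (0.17, 0.485) did not pass.

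The remaining families gave mixed results as well. Trp53inp2, the paralogue of Trp53inp1, measured 116, 95.2 and 102 CPM in the I/R livers and 184, 176 and 180 CPM in I/R+Rk2 livers (log2 fold change 0.79, SE 0.10, edgeR adjusted p = 0.00121). Its 3 treated livers lay close together, unlike those of Trp53inp1. The p21 paralogues Cdkn1b (log2 fold change -0.27, adjusted p = 0.174) and Cdkn1c (-0.41, 0.265) did not pass, nor did the cyclin G paralogue Ccng2 (-0.25, 0.437). Phlda1 was lower (log2 fold change -0.96, edgeR adjusted p = 0.0121), with 33.0% of its exonic bases shared with a lincRNA on the opposite strand, and Phlda2 did not pass (-0.07, 0.896). Zmat5 was higher (log2 fold change 0.93, adjusted p = 0.00453), with 27.1% of its exonic bases shared with Cabp7 on the opposite strand. Zmat2 was also higher (log2 fold change 0.29, edgeR adjusted p = 0.0381) but was called under only 5 of the 17 alternatives. Among TGF-beta family ligands, Inhbb, an activin subunit, fell from 35.2 CPM in I/R to 8.41 CPM with Rk2 (log2 fold change -2.05, edgeR adjusted p = 0.00202). Gdf2 (-0.90, adjusted p = 0.00776), Gdf9 (-2.49, 0.0259) and Gdf10 (-1.07, 0.0418) were also lower, and Inhbc was higher, from 26.1 to 46.4 CPM (log2 fold change 0.83, adjusted p = 0.0182). Of these, Gdf9 lay below 1 CPM in mean, and Gdf9, Gdf10 and Inhbc lost the call when single livers were left out. Inhba (log2 fold change -0.78, edgeR adjusted p = 0.348) and Inhbe (0.13, 0.851) did not pass, and neither did Plk4 (-0.08, 0.894) or Zmat1 (0.13, 0.827).

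Growth arrest and proliferation genes outside the 10 were mostly not called. Of 23 other arrest genes tested, 3 were lower (13.04%), 2 were higher (8.70%) and 18 did not pass, with a median log2 fold change of 0.03. Both shares lay below the 23.7% lower and 20.3% higher of all tested genes. Gadd45g, a stress-induced inhibitor of the mitotic cyclin-dependent kinase, fell from 64.4 ± 12.2 CPM in I/R to 29.3 ± 3.76 CPM with Rk2 (log2 fold change -1.13, edgeR adjusted p = 0.00222). The pocket protein Rbl2, which holds cells in quiescence, rose from 16.02 CPM in I/R to 26.1 CPM with Rk2 (log2 fold change 0.70, edgeR adjusted p = 0.0161), a call lost without I/R replicate 3 or I/R+Rk2 replicate 2. Of 39 proliferation genes, 28 were abundant enough to be tested. Of these, 6 were lower (21.4%), 3 were higher (10.7%) and 19 did not pass, with a median log2 fold change of 0.10. The 4 with the smallest p were all lower and act in G1: Ccne1 (log2 fold change -1.70), Cdk6 (-0.76), Ccnd2 (-1.21) and Ccnd3 (-1.38), with edgeR adjusted p between 0.00217 and 0.00329. Ccnd2, Ccnd3 and Cdk6 are also prominent in leukocytes. The 3 called higher were Gins2 (log2 fold change 4.15, edgeR adjusted p = 0.0206), Aurka (0.94, 0.0481) and Rrm1 (0.44, 0.029). None of these calls held without I/R+Rk2 replicate 2 or in the 3 FPKM analyses. The Gins2 change rested on few reads, namely 4, 2 and 12 per I/R library against 14, 340 and 49 per treated library. Its treated values were 0.588, 10.1 and 3.01 CPM, so replicate 2 stood far above the other treated livers. Of the exonic bases of Gins2, 67.3% are shared with Gse1 on the opposite strand.

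**Figure D5:**
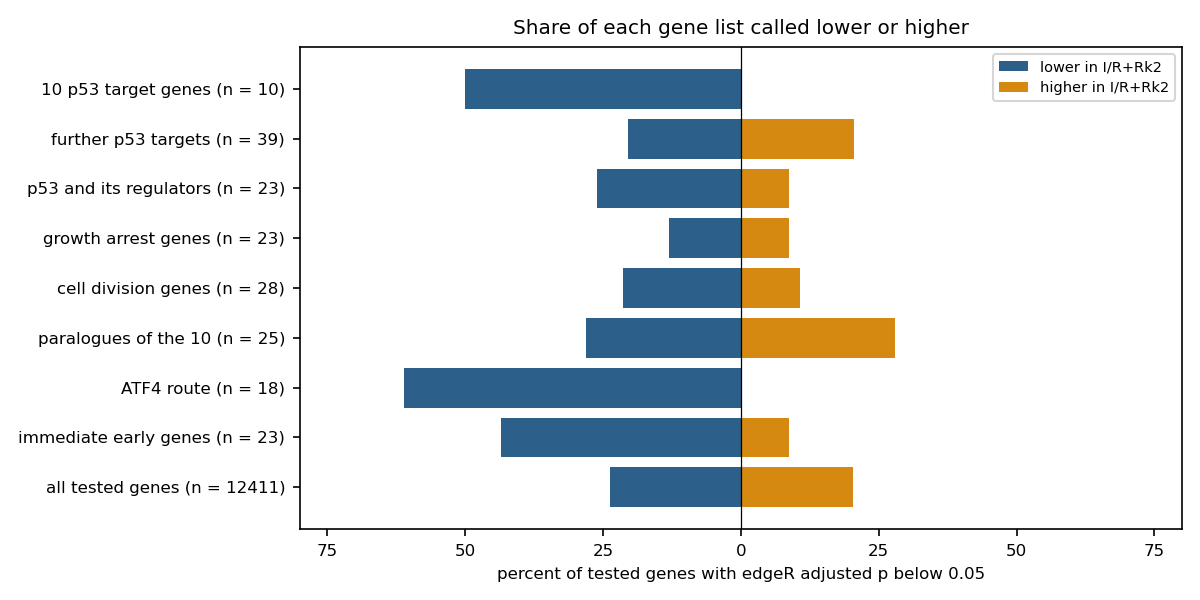
Share of tested genes called lower (left of 0) and higher (right of 0) in I/R+Rk2 livers, in percent, for the 10 genes, the related gene lists and all tested genes; Trp53 and Mdm4 are included in the regulators and Mdm4 in the paralogues. The 10 genes show 50% lower and 0 higher, the other p53 targets show 20.5% each way, and all genes show 23.7% lower and 20.3% higher.

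Gdf15 and Sesn2 are also targets of ATF4, the transcription factor of the integrated stress response. Of 18 tested ATF4 pathway genes, 11 were lower (61.1%) and 7 did not pass, with none higher by edgeR, by edgeR at an unadjusted p below 0.05 or by DESeq2, and the median log2 fold change was -0.71. The amino acid transporters Slc7a11 (log2 fold change -2.51) and Slc7a5 (-2.65), asparagine synthetase Asns (-1.94) and the glutathione-degrading enzyme Chac1 (-0.999) had the smallest p of the list, with edgeR adjusted p between 0.000265 and 0.00155. The 7 that did not pass were Atf4 itself (log2 fold change -0.29, edgeR adjusted p = 0.139), Ddit3 (-0.13, 0.638), Atf3 (-0.29, 0.138), Trib3 (-0.14, 0.757), Ddit4 (-0.20, 0.306), Vldlr (-0.82, 0.372) and Fgf21 (-0.60, 0.174). Sesn2 was lower, and Gdf15 was not called. Btg2 and Plk2 belong to the genes that cells induce within minutes of stimulation. Of 23 other immediate early genes tested, 10 were lower (43.5%), 2 were higher (8.70%) and 11 did not pass. Their median log2 fold change was -0.12, compared with -0.01 over all tested genes, of which 23.7% were lower and 20.3% higher. Klf6 (log2 fold change -1.50), Fosl2 (-0.99), Egr2 (-1.63) and Ier3 (-2.28) were lower, with edgeR adjusted p between 0.000327 and 0.000611. The 2 called higher were Klf10 (log2 fold change 1.14, edgeR adjusted p = 0.0179) and Zfp36 (0.56, 0.0155).

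The 5 tested genes whose log2 CPM followed that of Cdkn1a most closely over the 6 livers, among 9171 genes with a mean of at least 100 reads, were Srsf1 (Pearson r = 0.991), Trmt1 (0.981), Knop1 (0.977), Gpatch2 (0.965) and Psd3 (0.958). These coefficients describe 6 libraries that share depth and scaling, and the 5 genes were picked for their likeness. None of the 5 was called between the groups, and as for Cdkn1a their I/R replicates 1 and 2 were the highest livers.

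Bulk tissue mixes cell types, and for every gene here fewer cells of a type and less RNA per cell cannot be told apart. Hepatocyte markers dominated all 6 livers, with a summed 77124 to 88392 CPM for 10 markers in I/R and 107334 to 130738 CPM in I/R+Rk2 livers. Of the 10, 5 were higher and 1, Fgb, was lower. Most of that sum was Alb, at 44262 to 52469 CPM in I/R and 68876 to 88052 CPM with Rk2. All 10 monocyte markers were lower in treated livers, their sum being 1757 to 2094 CPM in the I/R livers and 1166 to 1227 CPM in I/R+Rk2 livers. Most of that sum was Fn1, which hepatocytes also express, and the other 9 markers summed to 349 to 418 CPM in I/R and 48.4 to 68.4 CPM with Rk2. Of 12 neutrophil markers 10 were lower, with sums of 579 to 699 and 109 to 252 CPM. The defining receptors were lower but not at 0, Ccr2 of monocytes falling from 14.2 to 0.658 CPM and Csf3r of neutrophils from 60.5 to 13.2 CPM. Of 7 Kupffer cell markers 1 was lower (51.6 to 82.3 against 38.1 to 50.3 CPM in sum), of 10 endothelial markers 3 were lower and 5 higher (218 to 231 against 204 to 249 CPM), of 9 stellate cell markers 3 were lower (162 to 198 against 126 to 155 CPM), and of 7 cholangiocyte markers 4 were lower (174 to 239 against 86.2 to 122 CPM). Most of the cholangiocyte sum was Spp1, which macrophages also express, and without it the sums were 41.8 to 50.9 against 31.1 to 38.9 CPM. T/NK and B cell markers were near the detection limit, with sums of at most 3.91 and 1.13 CPM, and Nkg7 was at 0 in all I/R livers, where a count of 0 allows up to 3 reads. The monocyte and neutrophil sums were thus lower, and the hepatocyte sum higher, in the same livers in which Btg2, Sesn2, Zmat3, Mdm2 and Plk2 were lower, and their part in the result was not tested.

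Fold changes also followed gene length. The median log2 fold change was 0.26 among the 1223 genes with the shortest exon unions (204 to 1705 bases) and -0.28 among the 1221 with the longest (9806 to 123179 bases). Zmat3, with 11435 exonic bases, belongs to the longest group, and its log2 fold change became -0.94 once the length trend had been removed, still called. The exon unions of Btg2 (2743 bases), Sesn2 (3475) and Mdm2 (5083) were of intermediate length, as were those of Cdkn1a (3553) and Ccng1 (3512), whereas Phlda3 (1559) and Gdf15 (1852), which did not pass, were shorter than every member called. Trp53inp1 (6475), which also did not pass, was longer than Btg2, Sesn2, Mdm2 and Plk2 (4491). Its log2 fold change was 0.48, and 0.60 once the length trend had been removed. Libraries held 16809613 to 35618074 assigned reads, and the smallest were I/R replicate 1 and I/R+Rk2 replicate 3. No pair of libraries of a group agreed within sampling noise.

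Positions of the 10 genes are given in GENCODE coordinates on GRCm38 (mm10). Cdkn1a is at chr17:29090976-29100727 and Plk2 at chr13:110395046-110400844, both on the plus strand, as are Trp53inp1 at chr4:11156431-11174379 and Phlda3 at chr1:135766119-135769136. Mdm2 is at chr10:117688875-117710758, Ccng1 at chr11:40748552-40755311 and Gdf15 at chr8:70629393-70632456, all on the minus strand. Sesn2 is at chr4:132492032-132510501, Zmat3 at chr3:32334792-32366014 and Btg2 at chr1:134075170-134079120, also on the minus strand. The deposited counts are per gene. Apart from Cdkn1a, no member shared exonic bases with another annotated gene.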

How the data were processed

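RNA was extracted with TRIzol from 6 livers, and 250 ng per liver entered MGIEasy libraries. Per the submitters' processing notes, reads were checked with FastQC 0.11.5, aligned to mm10 with HISAT2 2.2.1 and quantified with StringTie 1.3.3; annotation, strand setting and the step to the count table are not given in the sources used here. The deposited gene counts are raw, and the deposited FPKM values were normalized by the authors to length and library size. Groups came from the labels' treatment field.

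Counts were tested with edgeR 4.0.16 (R 4.3.3; filterByExpr, TMM scaling, quasi-likelihood test, Benjamini-Hochberg adjustment) on all 6 livers without a covariate. A gene was called at an adjusted p below 0.05; the study's further requirement of a fold above 2 is given separately. Alternatives were other scalings, other filters, DESeq2 1.42.0, limma 3.58.1 on log2(FPKM + 1) or log2(FPKM + 0.1), either unfiltered or for genes averaging 1 FPKM or more, a replicate block, removal of the length trend, and each liver left out. The edgeR step was tested on simulated data. Exact permutation tests used scipy 1.17.1.

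The 10 genes and all gene lists were chosen with earlier results of these data known. Named were all 10, p53, its regulators Mdm4, Atm and Ppm1d, paralogues of members, and the 5 genes most correlated with Cdkn1a. Up to 4 called genes per pathway list with the smallest p were also named. Chek2, Hipk2, Ppp1r13l, Bbc3, Bax, Klf10, Zfp36, Gins2, Aurka, Rrm1 and the ATF4 pathway genes that did not pass were added after the data were seen. So were the lists without Trp53, Mdm4, Fn1 or Spp1.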

Additional observations from a re-analysis of the deposited data

How the results depend on the processing

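Under the 17 alternatives, 4 to 6 of the 10 genes were called, and between 3781 and 5575 of all genes. Btg2, Sesn2, Zmat3 and Mdm2 were called lower in each. The log2 fold change of Ccng1, which was never called, turned negative with library size alone (-0.047), with limma on log2(FPKM + 1) with and without the filter (-0.0453 in both), with limma on log2(FPKM + 0.1) (-0.0547) and without I/R+Rk2 replicate 3 (-0.0451), leave-one-out values ranging from -0.0451 to 0.31; the cause was not tested. Across all genes, deviations of same-numbered livers correlated at -0.056, 0.005 and -0.058. These values cannot exclude a pairing that affects single genes. For Trp53inp1 the SE was 0.19 with the replicate block and 0.37 without it, and the gene was still not called (edgeR adjusted p = 0.182 with the block). With the replicate block 4 of the 10 genes were called, Plk2 being lost (log2 fold change -0.46, edgeR adjusted p = 0.0516), and 4713 of all genes. Leaving out 1 liver gave log2 fold changes of -1.56 to -1.11 for Btg2, -1.33 to -1.19 for Sesn2, -1.23 to -1.12 for Zmat3, -0.96 to -0.83 for Mdm2 and -0.58 to -0.34 for Plk2. With library size alone 72.5% of the called genes were lower, and in the FPKM fits 69.5% to 72.8%, compared with 53.9% under TMM scaling; the median of all genes was then -0.17 with library size alone. Zmat3 was smallest with limma on log2(FPKM + 1) (-0.71), a scale that understates changes of low genes. Called list genes moved by over 1.5 times in several alternatives: other p53 targets lower fell from 8 to 5 with 4 alternatives, other p53 targets higher fell from 8 to 5 with filtered FPKM, relatives higher (Mdm4 included) ranged from 3 to 7, regulators higher (Mdm4 included) from 0 to 2, arrest genes higher from 0 to 5, proliferation genes higher from 0 to 4 and immediate early genes higher from 0 to 4. Depth limits Phlda3, with 10 to 36 reads per library.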
